A study of Mus musculus with 2 samples.

Results

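Membrane transporters of the solute carrier (SLC) families that carry amino acids, sugars and monocarboxylates were examined in 2 libraries of mouse prostate tumour RNA. The genes were taken as the rows of the gene count table whose symbol belongs to Slc1, Slc2, Slc3, Slc5, Slc6, Slc7, Slc16, Slc36, Slc38 or Slc43 with a plain member number, which gave 97 of 27376 rows, or 96 symbols, since Slc38a9 has 2 rows. Of these, 64 had a mean of at least 1 CPM (reads of a gene scaled to the size of the library) over the libraries, 33 did not, and 7 of the 33 had no read in either library. Just below that minimum lay Slc7a14 at a mean of 0.892 CPM and Slc3a1 at 0.644 CPM, and just above it Slc16a14 at 1.38 CPM and Slc2a4 at 1.72 CPM. The rows were placed in 11 groups by the substrate each transporter is known for.

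These proteins set which nutrients a cell can take up or release. LAT and y+LAT light chains and the cystine carrier xCT reach the cell surface only as pairs with the heavy chain CD98hc (Slc3a2), and they are exchangers that bring 1 amino acid in as another leaves. Sodium-coupled carriers such as the SNAT proteins accumulate small neutral amino acids, glutamine among them, that can then drive such exchange. GLUT proteins let glucose pass down its gradient, and MCT1, MCT2 and MCT4 of the Slc16 family carry lactate and pyruvate together with a proton. Other proteins of that family carry other substrates. In human prostate, LAT3 (the product of SLC43A1) was first described as a gene overexpressed in prostate cancer, and LAT1, ASCT2 and MCT proteins have been studied as carriers of tumour nutrients.

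Tissue was taken fresh from prostate tumours of mice aged 16 months. The genotypes are named Bcat_Only and Met_Bcat, with 1 library each. Per the file headers the Bcat_Only column names a beta-catenin exon allele and Cre (Bcat_ex3Plus_PB_Cre), so altered beta-catenin is common to both groups as far as the genotype names state, and the MET allele of Met_Bcat is not described in the labels. Whole tissue was used without a sort of cell types, so each library mixes tumour epithelium with stroma and immune cells, and fewer cells of a type cannot be told apart from less RNA per cell. Because each genotype has a single library, no difference could be checked in replicates, and the genotypes were not tested against each other. Every difference given here compares these libraries. Ranges in parentheses after a ratio, fold or share of reads are 95% exact (Clopper-Pearson) intervals for counting error only, and sums, levels per length and ratios under other scalings are given without one.

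Reads assigned to genes numbered 19301062 for Bcat_Only and 20117724 for Met_Bcat. Ctnnb1, the beta-catenin gene, stood at 981 and 974 CPM and Met at 169 and 166 CPM in Bcat_Only and Met_Bcat. Such totals do not show which allele was read. The prostate label was checked on 13 luminal epithelial markers, all of which were measured in both libraries. Among them the homeobox gene Hoxb13 stood at 26.9 CPM for Bcat_Only and 153 CPM for Met_Bcat. The cell makeup of the libraries differed. The summed level of 10 fibroblast markers came to 27096 CPM for Bcat_Only against 1021 CPM for Met_Bcat, that of 9 macrophage markers 2164 and 360 CPM, that of 10 neutrophil markers 7707 and 786 CPM, and that of 7 smooth muscle markers 592 and 62.9 CPM. By the rule described next, 9 of the 10 fibroblast, 9 of the 9 macrophage, 10 of the 10 neutrophil and 7 of the 7 smooth muscle markers were lower in Met_Bcat, and 2 of these defining markers had no read there (Cd163 and Elane). Endothelial markers summed to 581 and 302 CPM, with 5 of 7 lower. Luminal markers summed to 3994 and 6380 CPM, with 4 of 13 higher and 1 lower, and 8 basal markers to 772 and 2005 CPM, with 5 higher and 1 lower. The 4 seminal vesicle markers, secreted proteins of the neighbouring gland, summed to 6132 CPM and 4.51 CPM, and 4 of 4 were lower. The part of these cell types in the transporter differences was not tested.

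Genes that reached the 1 CPM mean were called higher or lower in Met_Bcat if their whole interval lay beyond a 2-fold difference. By this rule 6 of the 64 transporter rows (9.38%) were higher in Met_Bcat, against 4.42% of all 14354 genes measured. A further 23 (35.9%) were lower, against 14.6% of all genes, and 35 were neither. Beyond a 4-fold difference lay 2 higher rows, Slc7a8 and Slc6a12, and 14 lower rows, against 1.75% and 7.57% of all genes. The median log2 ratio of the 64 rows, with 0.5 CPM added to each level, was −0.51, and that of all genes 0.03. A gene that is high in 1 library only can pass the minimum through that library, and 9 of the 23 lower rows were below 1 CPM in Met_Bcat. Of these, Slc1a1, Slc1a3, Slc2a4, Slc16a14, Slc36a2, Slc38a4 and Slc43a1 are also among the 14 lower rows beyond 4-fold. The 4-fold shares were not computed for genes with at least 1 CPM in both libraries. Among the 55 rows with at least 1 CPM in both libraries, 6 were higher and 14 lower (25.5%), against 3.42% and 10.6% of genes under the same condition. The sum over all 97 rows was 0.383% of reads in Bcat_Only (0.381% to 0.386%) and 0.396% in Met_Bcat (0.394% to 0.399%). The summed shares were thus similar, while single genes differed widely.

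**Figure D1:**
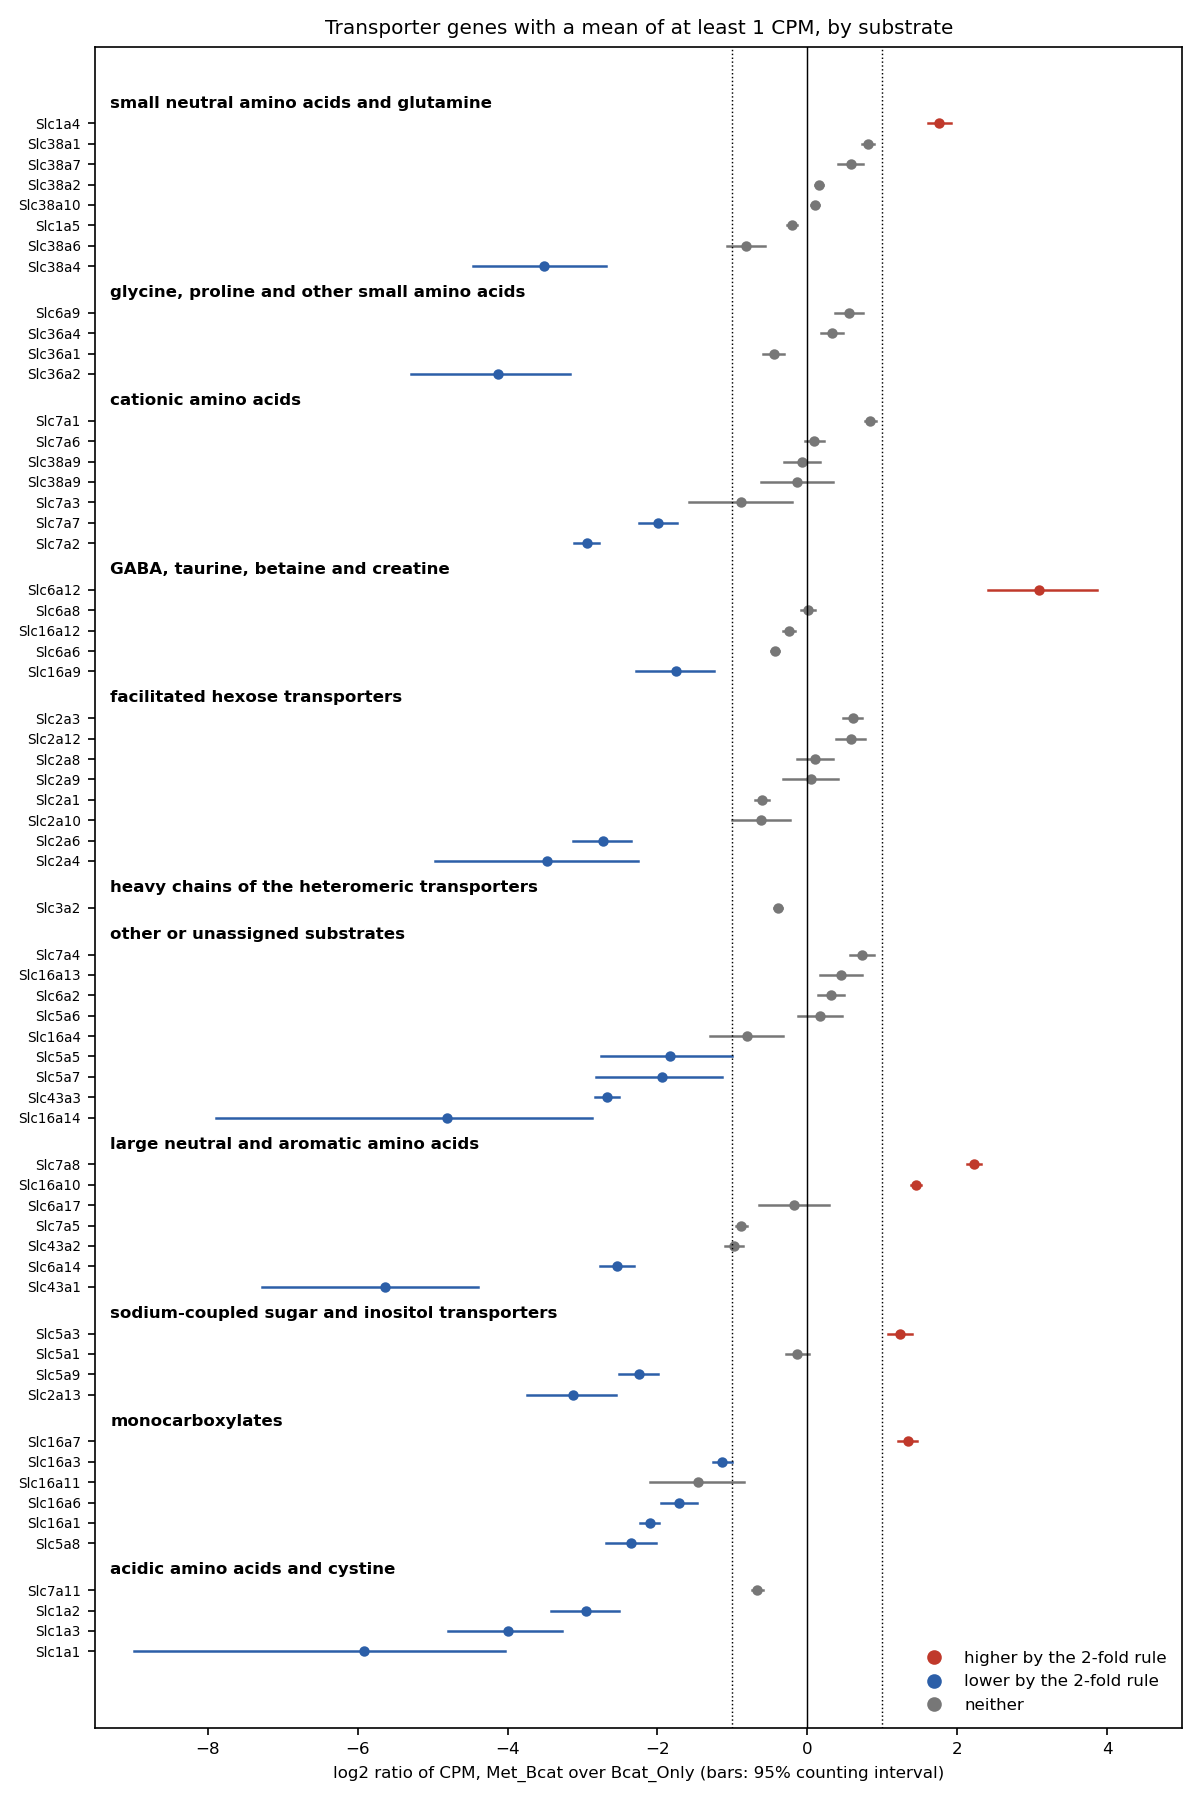
Log2 ratio of CPM between the Met_Bcat and the Bcat_Only library for 63 of the 64 transporter rows with a mean of at least 1 CPM, grouped by substrate, with 95% counting intervals as bars and dotted lines at a 2-fold difference. The 6 higher rows are spread over 5 groups, and the lower rows include 4 of the 6 measured monocarboxylate carriers, each at 1 CPM or more in both libraries. Of all genes under that condition 10.6% were lower.

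Levels were compared between genes as RPKM (CPM divided by the exon length of the gene in kilobases). The highest transporter in both libraries was Slc3a2, the CD98hc heavy chain, at 112 RPKM in Bcat_Only and 85.0 RPKM in Met_Bcat. In Bcat_Only it was followed by Slc38a2 (SNAT2) at 67.4 RPKM, Slc7a5 (LAT1) at 64.6 RPKM and Slc1a5 (ASCT2) at 46.2 RPKM. In Met_Bcat it was followed by Slc7a8 (LAT2) at 76.6 RPKM, Slc38a2 at 75.0 RPKM and Slc16a10 (TAT1) at 52.8 RPKM. Of the 10 highest transporters of each library 7 were the same genes.

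**Figure D2:**
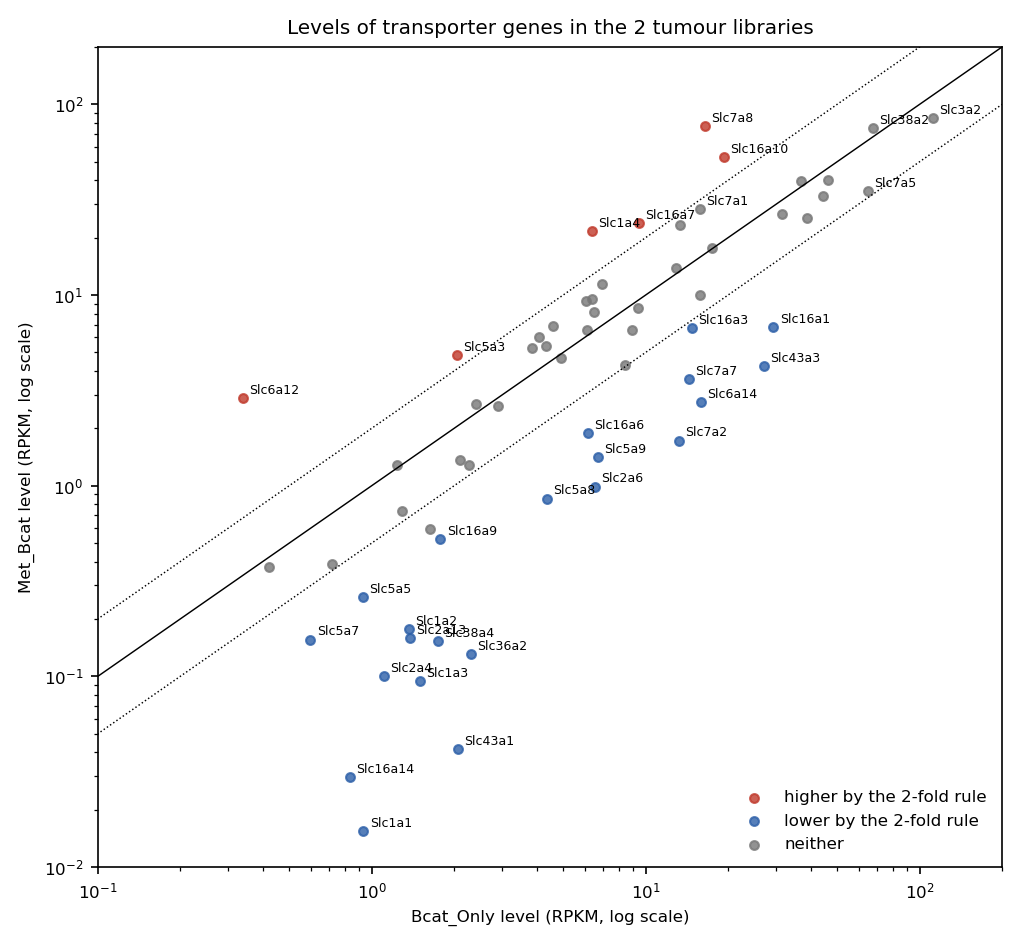
Level of 63 of the 64 measured transporter rows in the Bcat_Only library (horizontal axis) and the Met_Bcat library (vertical axis), in RPKM on log axes, with solid and dotted lines at equal levels and at 2-fold differences. Slc3a2 is the highest in both libraries, Slc7a8 and Slc16a10 lie above the upper dotted line among the abundant genes, and most of the lower genes were below 10 RPKM in Bcat_Only.

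Sequences are shown first for genes on which the results turn, as the 250 bases that precede the start of each gene in RefSeq on build GRCm38.p6, another build than that of the count table. Slc7a8, Slc16a10 and Slc1a4 stand for the genes that were higher in Met_Bcat, Slc43a1 and Slc16a1 for those that were lower, and Slc7a11 for the amino acid response. Capitals mark matches, on either strand, to the TCF/LEF core in any of the forms CTTTGAA or CTTTGAT or CTTTGTA or CTTTGTT, the C/EBP-ATF element spelled TGATGNAA, the E-box spelled CACGTG and the HIF core spelled ACGTG, which every E-box contains. All run 5′ to 3′ on the strand of their gene.
Slc7a8, chr14:54781887-54782136, minus strand: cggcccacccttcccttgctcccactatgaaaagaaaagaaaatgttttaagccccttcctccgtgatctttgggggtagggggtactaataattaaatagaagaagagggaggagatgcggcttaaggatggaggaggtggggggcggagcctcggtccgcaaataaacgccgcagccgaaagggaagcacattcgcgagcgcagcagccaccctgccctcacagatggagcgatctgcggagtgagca
Slc16a10, chr10:40142255-40142504, minus strand: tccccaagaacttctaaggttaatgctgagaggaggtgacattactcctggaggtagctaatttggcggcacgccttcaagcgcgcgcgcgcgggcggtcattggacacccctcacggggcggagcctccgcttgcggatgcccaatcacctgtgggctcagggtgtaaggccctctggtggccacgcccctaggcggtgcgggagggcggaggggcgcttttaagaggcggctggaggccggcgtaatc
Slc1a4, chr11:20332714-20332963, minus strand: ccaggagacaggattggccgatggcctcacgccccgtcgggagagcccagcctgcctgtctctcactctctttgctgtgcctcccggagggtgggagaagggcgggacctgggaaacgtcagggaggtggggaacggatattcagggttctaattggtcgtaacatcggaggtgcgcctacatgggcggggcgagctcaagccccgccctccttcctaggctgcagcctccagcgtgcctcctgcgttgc
Slc43a1, chr2:84840073-84840322, plus strand: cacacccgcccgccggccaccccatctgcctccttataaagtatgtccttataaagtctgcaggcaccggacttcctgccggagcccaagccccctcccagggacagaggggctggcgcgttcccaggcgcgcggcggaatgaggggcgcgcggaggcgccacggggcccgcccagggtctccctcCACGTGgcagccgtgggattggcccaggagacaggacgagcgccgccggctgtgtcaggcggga
Slc16a1, chr3:104638414-104638663, plus strand: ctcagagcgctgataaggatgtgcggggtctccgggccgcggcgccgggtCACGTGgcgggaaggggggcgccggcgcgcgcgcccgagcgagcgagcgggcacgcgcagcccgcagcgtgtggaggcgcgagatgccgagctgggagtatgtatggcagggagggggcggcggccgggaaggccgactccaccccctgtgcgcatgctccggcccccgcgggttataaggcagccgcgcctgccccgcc
Slc7a11, chr3:50443614-50443863, minus strand: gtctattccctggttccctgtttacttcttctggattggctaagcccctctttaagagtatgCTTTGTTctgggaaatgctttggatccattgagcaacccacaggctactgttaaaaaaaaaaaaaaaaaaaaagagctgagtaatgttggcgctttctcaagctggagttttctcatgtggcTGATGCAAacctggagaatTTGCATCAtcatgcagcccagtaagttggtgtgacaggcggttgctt

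With bases counted from 1 at the left end, Slc43a1 had an E-box from base 187 and Slc16a1 one from base 51. Slc7a11 had a TCF/LEF core from base 63 and C/EBP-ATF elements from bases 185 and 204. The windows of Slc7a8, Slc16a10 and Slc1a4 held none of these letters. The table matched 68 of the 96 symbols and 45 of the 63 measured symbols, which had 62 promoter windows. A TCF/LEF core was found in 10 of those 62 (16.1%) and in 14.8% of all 32851 windows, and a C/EBP-ATF element in 3 (4.84%) and in 3.45%. An E-box was found in 6 (9.68%) against 6.02%, and a HIF core in 12 (19.4%) against 16.6%. None of the higher genes with a window (Slc1a4, Slc5a3, Slc6a12, Slc7a8 and Slc16a10) had any of these matches. Slc6a12 alone has 5 of their windows. So few genes cannot show whether higher genes differ from the shares of all windows. A match describes the letters only, and binding was not measured.

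Large neutral and aromatic amino acid carriers differed in opposite directions. Of 7 measured genes, 2 were higher and 2 lower, and of the 6 with at least 1 CPM in both libraries, 2 were higher and 1 lower. The counts of this and the following groups stand beside 4.42% of all measured genes higher and 14.6% lower. Under the condition of at least 1 CPM in both libraries, these shares were 3.42% and 10.6%. Slc7a8 (ENSMUSG00000022180, mm9 chromosome 14, 55341053 to 55400723), the light chain LAT2 that exchanges neutral amino acids, gave 1219 reads (66.2 CPM) for Bcat_Only and 6511 reads (309 CPM) for Met_Bcat, 4.67-fold higher (4.39 to 4.97). Slc16a10 (ENSMUSG00000019838, chromosome 10, 39753341 to 39862062) encodes TAT1, which lets aromatic amino acids pass in either direction. It had 2182 and 6835 reads, or 118 and 324 CPM, 2.74-fold higher (2.61 to 2.87). These were the abundant genes of the set in Met_Bcat, and both stayed past the rule when the libraries were scaled to the luminal markers, at 3.68-fold and 2.16-fold.

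Slc43a1 (ENSMUSG00000027075, chromosome 2, 84679007 to 84703751), which encodes LAT3, was nearly absent from Met_Bcat. Its 217 reads of the Bcat_Only library faced 5 of the Met_Bcat library, or 11.8 and 0.237 CPM, 49.6-fold lower (21.0 to 154). Slc6a14 (ENSMUSG00000031089, chromosome X, 21292022 to 21319481) encodes a sodium- and chloride-coupled carrier of both neutral and cationic amino acids, and it had 1008 and 199 reads, 5.79-fold lower (4.97 to 6.78). Slc7a5 (ENSMUSG00000040010, chromosome 8, 124405052 to 124431594), the light chain LAT1 for leucine and other large neutral amino acids, had 4185 and 2598 reads, or 227 and 123 CPM. Its ratio of 0.543 (0.517 to 0.570) did not reach the rule. Slc43a2, the related carrier LAT4, stood just outside it, with 1560 and 908 reads and a ratio of 0.509 (0.468 to 0.553). Under scaling to the luminal markers Slc7a5 and Slc43a2 passed as lower, at ratios of 0.428 and 0.401. Slc6a17, a vesicular carrier of neurons, had 80 and 81 reads. Slc6a19 and Slc6a15, below the minimum, had 14 and 5 reads and 11 and 0 reads, and Slc6a18 had none in either library.

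LAT1 and LAT2 thus stood in opposite order in the libraries. Of the reads of Slc7a8 and Slc7a5 together, Slc7a8 held 22.6% in Bcat_Only (21.4% to 23.7%) and 71.5% in Met_Bcat (70.5% to 72.4%), a share that does not depend on how the libraries are scaled. Per length, Slc7a5 was 3.94-fold above Slc7a8 in Bcat_Only, and Slc7a8 was 2.18-fold above Slc7a5 in Met_Bcat. Slc16a10 and Slc43a2, which both let amino acids pass without an exchange partner, kept their order, with 58.3% of their joint reads from Slc16a10 in Bcat_Only (56.7% to 59.9%) and 88.3% in Met_Bcat (87.5% to 89.0%). These and the 6 other pairs below were chosen after their values were seen.

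**Figure D3:**
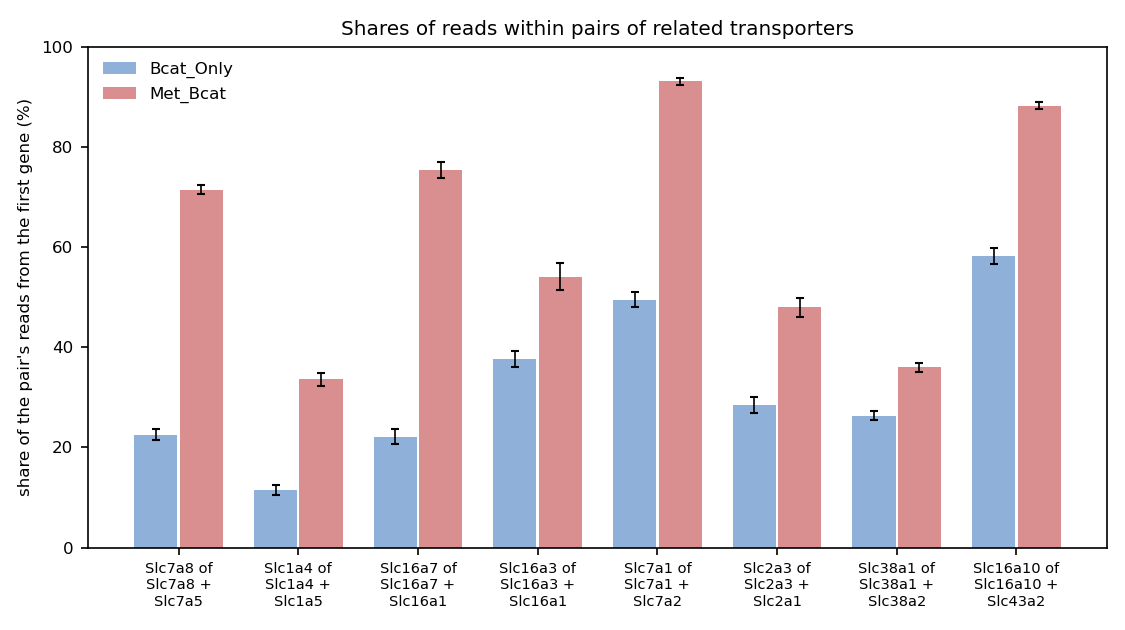
Share of the joint reads of 8 pairs of related transporters that came from the first gene of each pair, in percent, in the Bcat_Only and Met_Bcat libraries, with 95% exact intervals for counting error as bars. The pairs were chosen after their values were seen, and either gene could stand first, so the direction shared by the 8 pairs carries no weight. The shares differ most for Slc16a7 with Slc16a1, at 22.1% and 75.5%, and for Slc7a8 with Slc7a5, at 22.6% and 71.5%.

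The heavy chain itself differed little. Slc3a2 (ENSMUSG00000010095, chromosome 19, 8781372 to 8797859) gave 6095 reads (331 CPM) for Bcat_Only and 5298 reads (251 CPM) for Met_Bcat, a ratio of 0.760 (0.732 to 0.788). Slc3a1, the heavy chain rBAT of the kidney and gut cystine carrier, had 8 and 18 reads and lay below the minimum, and its light chain gene Slc7a9 had 1 and 0. The summed level of the CD98hc light chain genes was 124 RPKM in Bcat_Only and 139 RPKM in Met_Bcat. Slc7a5 made up 52.0% of that sum in Bcat_Only and 25.2% in Met_Bcat, and Slc7a8 made up 13.2% and 55.1%. Slc7a6, the light chain y+LAT2, kept close to the same share, 10.4% and 9.93%. Slc7a11 made up 12.7% and 7.16% of the sum, and Slc7a7 made up 11.6% and 2.60%.

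**Figure D4:**
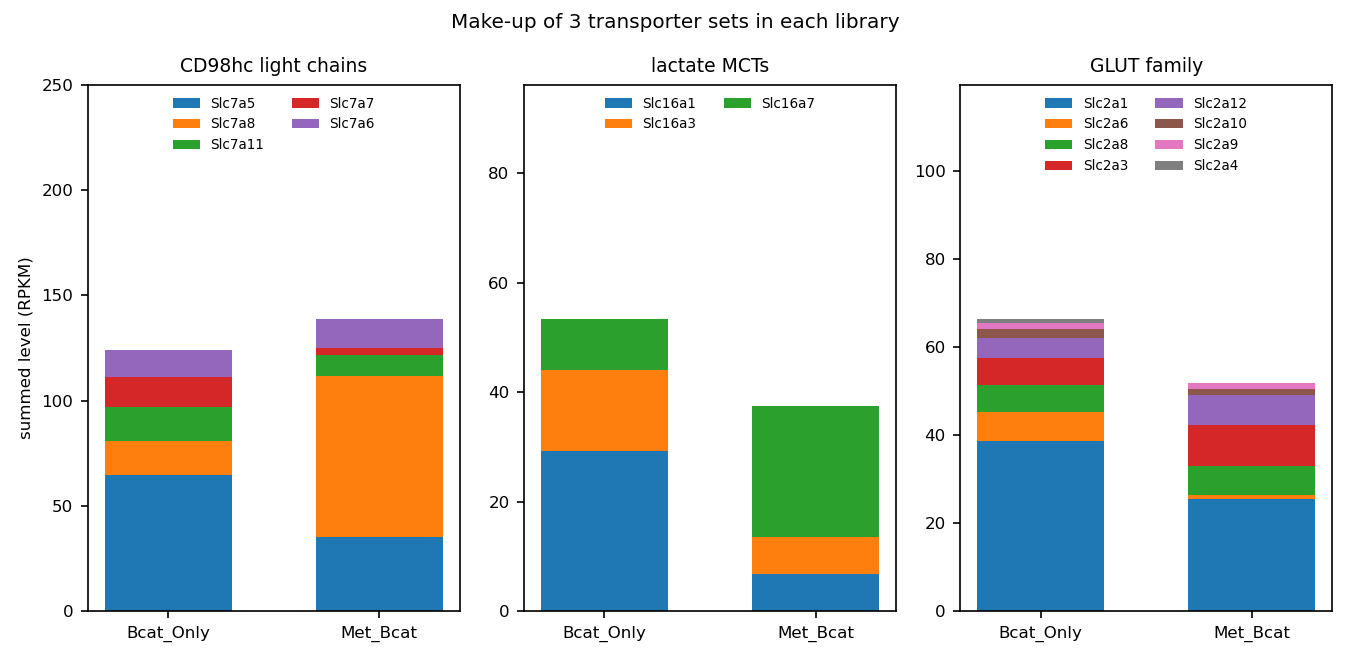
Summed level, in RPKM, of the light chain genes that pair with CD98hc, of the lactate-carrying MCT genes and of the GLUT genes in the Bcat_Only and Met_Bcat libraries, with 1 colour for each gene that reached 1 RPKM in either library. The light chain bar is mostly Slc7a5 in Bcat_Only and mostly Slc7a8 in Met_Bcat, the MCT bar passes from Slc16a1 to Slc16a7, and Slc2a1 is the largest part of the GLUT bar in both.

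Cystine and acidic amino acid carriers had 3 lower genes and none higher among 4 measured, but 2 of the lower ones, Slc1a1 and Slc1a3, passed the minimum only through Bcat_Only. With at least 1 CPM in both libraries, 1 of 2 was lower, against 10.6% of all genes. Slc7a11 (ENSMUSG00000027737, chromosome 3, 50168858 to 50247535), the cystine-glutamate exchanger xCT that supplies cysteine for glutathione, was the abundant one. It had 3270 and 2358 reads, or 177 and 112 CPM, a ratio of 0.630 (0.598 to 0.665) that did not reach the rule. The sodium-coupled glutamate carriers were far lower in Met_Bcat. Slc1a1 (ENSMUSG00000024935, chromosome 19, 28909539 to 28988450), the epithelial and neuronal glutamate and cysteine carrier EAAT3, had 106 reads against 2, 60.6-fold lower (16.4 to 507). Slc1a3 (GLAST) had 236 and 17 reads, 15.9-fold lower (9.71 to 27.7), and Slc1a2 (GLT-1) 332 and 49 reads, 7.75-fold lower (5.73 to 10.7). All 3 were weakly expressed, at no more than 1.50 RPKM in Bcat_Only. Slc1a6, the Purkinje cell carrier EAAT4, had 19 reads against 0, with a mean below the minimum. Slc1a7 had 2 and 4 reads, and Slc7a13 had none.

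Small neutral amino acid and glutamine carriers were mostly within 2-fold, with 1 of 8 measured genes higher and 1 lower. Of all measured genes, 80.9% were neither, 4.42% higher and 14.6% lower. The lower carrier gene was below 1 CPM in Met_Bcat. Slc1a4 (ENSMUSG00000020142, chromosome 11, 20202183 to 20232716), the alanine, serine and cysteine exchanger ASCT1, gave 460 and 1784 reads, or 25.0 and 84.6 CPM, 3.39-fold higher (3.06 to 3.76). Slc1a5 (ENSMUSG00000001918, chromosome 7, 17366695 to 17383623), the glutamine exchanger ASCT2, had 3541 and 3523 reads, or 192 and 167 CPM, a ratio of 0.870 (0.830 to 0.911). Slc1a4 therefore made up 11.5% of the joint reads of the ASCT genes in Bcat_Only (10.5% to 12.5%) and 33.6% in Met_Bcat (32.3% to 34.9%), with Slc1a5 the larger part in both.

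SNAT genes of the Slc38 family carry glutamine and other small amino acids with sodium. Slc38a2 (ENSMUSG00000022462, chromosome 15, 96517825 to 96530129), whose product SNAT2 is induced when amino acids are scarce, had 5746 and 7317 reads, or 312 and 347 CPM, a ratio of 1.11 (1.08 to 1.15) that turned to 0.877 under scaling to the luminal markers. Its neighbour Slc38a1, 44.5 kb away on the same strand, had 2059 and 4120 reads, a ratio of 1.75 (1.66 to 1.85) that did not reach the rule. Slc38a4, a carrier of liver and placenta that is imprinted in mice, lies on the same chromosome (96825254 to 96886387). It went the other way, with 130 reads and 13, 11.4-fold lower (6.46 to 22.1). The lysosomal glutamine and asparagine exporter gene Slc38a7 had a ratio of 1.49 (1.33 to 1.67), Slc38a10 one of 1.07 (1.03 to 1.12), which turned to 0.846 under that scaling, and Slc38a6 one of 0.567 (0.474 to 0.676). The system N genes Slc38a3 and Slc38a5 had 3 and 2 reads and 5 and 0 reads, and Slc38a8 and Slc38a11 had 1 and 0 reads and 11 and 1 reads.

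Cationic amino acid carriers had 2 lower genes and none higher among 7 measured rows, against 14.6% and 4.42% of all genes. The arginine and lysine carriers diverged. Slc7a2 (ENSMUSG00000031596, chromosome 8, 41947750 to 42007662), the carrier CAT2 that supplies arginine to activated macrophages among other cells, gave 2233 and 332 reads, or 121 and 15.8 CPM, 7.69-fold lower (6.85 to 8.66). Slc7a1 (ENSMUSG00000041313, chromosome 5, 149138986 to 149211480), the widely expressed carrier CAT1, had 2190 and 4491 reads, or 119 and 213 CPM, a ratio of 1.79 (1.70 to 1.89) short of the rule. The reads of the pair were split almost evenly in Bcat_Only, where Slc7a1 held 49.5% (48.0% to 51.0%), whereas in Met_Bcat it held 93.1% (92.4% to 93.8%). Slc7a7, the light chain y+LAT1 of gut, kidney and macrophages, had 600 and 173 reads, 3.97-fold lower (3.34 to 4.73). The 9 macrophage markers were lower in the same library, with a median log2 ratio of −2.26. The log2 ratios were −2.90 for Slc7a2 and −1.92 for Slc7a7, all with 0.5 CPM added. Fibroblast, smooth muscle and neutrophil markers were lower there too, with medians of −4.58, −4.25 and −5.37. The luminal and basal medians were 0.34 and 1.52. Which cells held the RNA of these carriers was not tested. The span of Slc7a7 overlaps that of Oxa1l on the other strand, which had 1412 and 1987 reads.

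Slc7a6, the second y+LAT light chain, had 890 and 1086 reads, a ratio of 1.07 (0.975 to 1.17), and 0.840 under scaling to the luminal markers. Slc7a3 (CAT3) had 50 and 31 reads. Slc38a9 encodes the lysosomal arginine sensor that signals to the kinase complex mTORC1. Its first row (ENSMUSG00000047789) had 276 and 301 reads and the second (ENSMUSG00000069056), which starts 0.754 kb further on the same strand, 75 and 78 reads, with ratios of 0.953 (0.807 to 1.13) and 0.909 (0.654 to 1.27).

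Glycine, proline and other small amino acid carriers included 4 measured genes, of which 1 was lower, against 14.6% of all genes. That gene was below 1 CPM in Met_Bcat. Slc36a2, the proton-coupled glycine and proline carrier PAT2, had 138 and 9 reads, 17.5-fold lower (8.98 to 39.2). It lies 19.3 kb from Slc36a1, the lysosomal and intestinal carrier PAT1, which had 923 and 774 reads and a ratio of 0.733 (0.665 to 0.807). Slc36a4 had a ratio of 1.25 (1.13 to 1.39), or 0.987 under scaling to the luminal markers, and the glycine carrier Slc6a9 one of 1.47 (1.29 to 1.67). The span of Slc6a9 overlaps B4galt2 on the other strand, with 199 and 52 reads. Of the 5 rows below the minimum, Slc7a10 and Slc36a3 had 3 and 2 reads against 0, and Slc6a5, Slc6a7 and Slc7a12 had none.

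Carriers of betaine, taurine, GABA and creatine included the gene with the largest ratio of the 6 higher ones. Slc6a12 (ENSMUSG00000030109, chromosome 6, 121293094 to 121315793) encodes BGT1, which carries betaine and GABA and serves the uptake of betaine as an osmolyte in kidney. It gave 19 and 186 reads, or 1.03 and 8.83 CPM, 8.56-fold higher (5.33 to 14.5), from 0.338 to 2.89 RPKM. Its neighbour Slc6a13, 5.34 kb away on the same strand, had 3 and 2 reads. Slc6a6, the taurine carrier TauT and the most abundant of the group, had 5041 and 4279 reads, a ratio of 0.742 (0.712 to 0.773). The creatine carrier gene Slc6a8 had 1684 and 1939 reads, a ratio of 1.01 (0.942 to 1.08) or 0.793 under scaling to the luminal markers, and Slc16a12, which also carries creatine, a ratio of 0.843 (0.795 to 0.894). Slc16a9 (MCT9) was lower, with 127 and 43 reads, 3.38-fold (2.37 to 4.89). The GABA carrier gene Slc6a11 had 0 and 4 reads.

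Facilitated hexose carriers had 2 lower genes and none higher among 8 measured, against 14.6% and 4.42% of all genes. Of the 7 with at least 1 CPM in both libraries 1 was lower, against 10.6% of all genes. Slc2a1 (ENSMUSG00000028645, chromosome 4, 118781316 to 118809935), the widely expressed glucose carrier GLUT1, gave 2036 and 1532 reads, or 111 and 72.7 CPM, a ratio of 0.658 (0.615 to 0.703). Slc2a3, the high-affinity glucose carrier GLUT3, had 811 and 1413 reads, a ratio of 1.52 (1.40 to 1.66). Neither reached the rule, and Slc2a1 remained the highest of the family per length, 6.38-fold above Slc2a3 in Bcat_Only and 2.75-fold in Met_Bcat. Slc2a3 held 28.5% of their joint reads in Bcat_Only (26.8% to 30.2%) and 48.0% in Met_Bcat (46.2% to 49.8%). Slc2a12, a glucose carrier first found in breast cancer cells, had a ratio of 1.49 (1.31 to 1.70). The ratios of Slc2a8 (GLUT8) and of the urate carrier gene Slc2a9 were 1.07 (0.907 to 1.27) and 1.03 (0.800 to 1.33), with intervals that include 1 and ratios of 0.844 and 0.813 under scaling to the luminal markers, and that of Slc2a10 was 0.652 (0.501 to 0.848).

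The lower hexose carriers were Slc2a6 and Slc2a4. Slc2a6 (ENSMUSG00000036067, chromosome 2, 26876883 to 26883518), the lysosomal member GLUT6, had 387 and 67 reads, 6.61-fold lower (5.09 to 8.70). Slc2a4, the insulin-responsive carrier GLUT4 of muscle and fat, had 58 reads and 6, 11.1-fold lower (4.78 to 31.4). In the same library 3 of the 3 measured adipocyte markers were lower, and Cfd had 578 reads against 0. Plin1 and Cidec, below the minimum, had 9 and 17 reads against 0, and Lep had none in either library. The liver and islet carrier gene Slc2a2 had 10 and 5 reads, and the fructose carrier gene Slc2a5 and Slc2a7 had at most 1.

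Sodium-coupled sugar carriers and inositol carriers included 4 measured genes, 1 of them higher and 2 lower, against 4.42% and 14.6% of all genes. The inositol carriers diverged. Slc5a3 (ENSMUSG00000089774, chromosome 16, 92058567 to 92087718), the sodium-inositol carrier SMIT1, had 413 and 1112 reads, or 22.4 and 52.8 CPM, 2.35-fold higher (2.10 to 2.64). Its span lies within that of the mitochondrial ribosomal gene Mrps6 on the same strand, which had 254 and 685 reads, a ratio of 2.36 (2.04 to 2.73), and how reads of overlapping genes were assigned is not stated. Under scaling to the luminal markers the ratio of Slc5a3 was 1.85 and no longer reached the rule. Slc2a13, the proton-inositol carrier HMIT, had 213 and 28 reads, 8.70-fold lower (5.85 to 13.4).

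Slc5a1, the intestinal sodium-glucose carrier SGLT1, had 711 and 742 reads, a ratio of 0.912 (0.822 to 1.01). Slc5a9, the mannose and fructose carrier SGLT4, had 638 and 154 reads, 4.74-fold lower (3.97 to 5.69). The kidney carrier SGLT2 gene Slc5a2 had no read, and Slc5a10 and Slc5a11 had at most 3.

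Monocarboxylate carriers had 1 higher and 4 lower genes among 6 measured, against 4.42% and 14.6% of all genes. Slc16a1 (ENSMUSG00000032902, chromosome 3, 104442591 to 104462385), the lactate and pyruvate carrier MCT1, gave 2387 and 636 reads, or 130 and 30.2 CPM, 4.29-fold lower (3.93 to 4.69). Slc16a3 (ENSMUSG00000025161, chromosome 11, 120809794 to 120822182), the lactate exporter MCT4 of glycolytic cells, had 1442 and 751 reads, 2.20-fold lower (2.01 to 2.40). It lay just inside the rule and fell outside it with total counts or upper quartiles as library sizes, and its span overlaps that of Csnk1d on the other strand, which had 4003 and 6729 reads. Slc16a7 (ENSMUSG00000020102, chromosome 10, 124663520 to 124766019), the high-affinity pyruvate and lactate carrier MCT2, had 677 and 1958 reads, or 36.7 and 92.9 CPM, 2.53-fold higher (2.32 to 2.76). Under scaling to the luminal markers its ratio was 1.99, outside the rule.

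MCT1 and MCT2 thus also stood in opposite order. Slc16a7 held 22.1% of the joint reads of Slc16a7 and Slc16a1 in Bcat_Only (20.6% to 23.6%) and 75.5% in Met_Bcat (73.8% to 77.1%). Per length Slc16a1 was 3.10-fold above Slc16a7 in Bcat_Only, and Slc16a7 was 3.50-fold above Slc16a1 in Met_Bcat. Slc16a3 and Slc16a1 stood at 14.7 and 29.3 RPKM in Bcat_Only and at 6.70 and 6.82 RPKM in Met_Bcat, where their levels were nearly equal. The summed level of the lactate-carrying MCT genes was 53.5 RPKM in Bcat_Only and 37.4 RPKM in Met_Bcat.

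The remaining monocarboxylate carriers were lower or scarce. Slc5a8 (ENSMUSG00000020062, chromosome 10, 88348737 to 88392250), the sodium-coupled carrier SMCT1, which is silenced in human colon tumours, had 427 and 96 reads, 5.09-fold lower (4.07 to 6.42). Slc16a6 (MCT7), which exports ketone bodies from the liver of zebrafish, had 555 and 194 reads, 3.27-fold lower (2.77 to 3.87), and its span overlaps Arsg and Amz2 on the other strand. Slc16a11 had 77 and 32 reads, a ratio of 0.363 (0.233 to 0.555) short of the rule. Slc16a8, the carrier of retinal pigment epithelium, and Slc5a12 had at most 3 reads.

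Carriers of other or unassigned substrates in the same families had 5 lower genes and none higher among 10 measured, of which 3 lower ones, Slc5a5, Slc5a7 and Slc16a14, passed the minimum only through Bcat_Only. With at least 1 CPM in both libraries, 2 of 7 were lower, against 10.6% of all genes. Slc43a3 (ENSMUSG00000027074, chromosome 2, 84776736 to 84798666), a purine base carrier that lies 73.0 kb from Slc43a1 on the same strand, had 2219 and 399 reads, 6.36-fold lower (5.72 to 7.10). Slc16a14, which has no assigned substrate, had 49 and 2 reads, 28.0-fold lower (7.36 to 238). The iodide carrier gene Slc5a5 had 50 and 16 reads, 3.57-fold lower, with an interval that runs from the edge of the rule to 6.73, and fell outside the rule with total counts or upper quartiles, and the choline carrier gene Slc5a7 had 57 and 17 reads, 3.84-fold lower (2.20 to 7.03). Ratios of Slc7a4, the noradrenaline carrier gene Slc6a2, Slc16a13, Slc16a4 and the biotin and pantothenate carrier gene Slc5a6 lay between 0.570 and 1.65, and those of Slc6a2 and Slc5a6 turned below 1 under scaling to the luminal markers. Slc7a14 and Slc16a5 had 32 and 19 reads against 1 and 0 but lay below the minimum, as did Slc6a4, Slc7a15 and Slc6a3 with at most 11 reads.

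Genes that act beside these carriers were mostly within 2-fold. The counts of the lists below stand beside 4.42% of all genes higher, 14.6% lower and 80.9% neither. Of 20 genes of the amino acid response, which the factor ATF4 drives when amino acids are scarce, 2 were higher and 4 lower, with a median log2 ratio of −0.30. Atf4 itself had 140 CPM in both libraries, a ratio of 0.999 (0.947 to 1.05). Pycr1 of proline synthesis was 2.37-fold higher (2.09 to 2.70) and Stc2 2.50-fold (2.28 to 2.75), while Ddit4, an inhibitor of mTORC1, was 3.28-fold lower (2.99 to 3.60) and Nupr1 3.06-fold (2.79 to 3.35). In glutamine metabolism 1 of 13 genes was higher and none lower, the higher one being the alanine aminotransferase gene Gpt2 at 2.50-fold (2.38 to 2.63), from 108 to 271 CPM.

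Among 12 genes of glutathione and cysteine handling 2 were higher and 1 lower. Gclm, the regulatory subunit of the enzyme that joins cysteine to glutamate, was 3.33-fold higher (3.16 to 3.52), and Gss, glutathione synthetase, 2.45-fold (2.24 to 2.68). Hmox1, haem oxygenase, which macrophages express strongly, was 8.83-fold lower (7.90 to 9.90), from 146 to 16.6 CPM, in the library where the macrophage markers were lower. The 19 genes of lysosomal amino acid sensing and mTORC1 had a median log2 ratio of 0.00, with none higher and 2 lower, Rragd 4.91-fold (3.12 to 8.01) and Sesn1 2.79-fold (2.41 to 3.23).

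Glycolysis and lactate genes had 4 lower and none higher of 20, with a median log2 ratio of −0.31. The hexokinase gene Hk2 was 2.36-fold lower (2.22 to 2.50), Pfkp 2.19-fold (2.01 to 2.39), and Pdk4, a kinase that inhibits pyruvate dehydrogenase, 3.15-fold (2.60 to 3.84). Hk3, a hexokinase of myeloid cells, was 19.1-fold lower (13.3 to 28.4), and the neutrophil and macrophage markers were lower in the same library. Ldha, lactate dehydrogenase, had 498 and 428 CPM, a ratio of 0.859 (0.835 to 0.885). The surface partners of the lactate carriers differed from each other. Bsg (basigin), which brings MCT1 and MCT4 to the membrane, had 682 and 613 CPM, a ratio of 0.899 (0.877 to 0.921). Emb (embigin), the partner of MCT2, had 147 and 44.7 CPM and was 3.29-fold lower (3.06 to 3.55), the opposite direction to Slc16a7. The lists of these genes were chosen with earlier results known, and their counts carry no test.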

How the data were processed

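RNA of 1 prostate tumour per genotype was sequenced. Per the labels' protocols, 200 ng of total RNA entered a stranded mRNA kit with 10 cycles of PCR, and reads were single-end, 51 bases. The authors deposited raw counts of reads for each gene as integers, with mm9 coordinates and each gene's total exon length, per the file headers. TopHat2 version 2, HTSeq, edgeR and mm9 are listed per the submitters' processing notes. The sources used here do not give alignment or counting settings, strand included, so reads of overlapping genes are uncertain, and 8 of the 64 measured transporter rows overlap a gene with at least 10 reads in both libraries. Genes with near-identical copies, such as Gapdh and Eno1, may be undercounted.

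Library sizes were scaled by TMM (edgeR 4.0.16, R 4.3.3) over all genes, with factors of 0.955 for Bcat_Only and 1.05 for Met_Bcat. RPKM used the deposited exon length. Intervals for ratios are exact (Clopper-Pearson, scipy 1.17.1), conditional on the gene's summed reads. They cover counting error only, since PCR reads without molecular identifiers are not independent molecules. No p-value was computed. The calculation was tested on simulated data with counting error as the only noise, the model that the intervals assume. Such a test checks the calculation alone and cannot show how PCR copies or variation between animals affect the intervals. Named are the measured transporters past the rule, the most abundant of each group, a fixed set of well-known carriers, and up to 4 genes of each accompanying list, and other transporters are given as values. A few genes are counted but not reported by name here. The transporters, lists and settings were chosen with earlier results of these data known. List symbols absent from the table were matched by Ensembl identifier for 4 of 182 entries.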

Additional observations from a re-analysis of the deposited data

How the results depend on the processing

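No paired analysis was possible because each genotype has 1 library, and for the same reason no replicate could be left out. Another scaling moves every log2 ratio by the same amount, at most 0.34 here, so called ratios cannot change sign, and 2, 0, 1 and 9 of the 64 ratios changed sign with total counts, median-of-ratios factors, upper quartiles and luminal markers. Total counts gave 6 higher and 20 lower genes with a median log2 ratio of −0.38. Of all genes 5.39% were then higher and 13.3% lower, with a median of 0.16. Scaling to the luminal markers, which lowers all log2 ratios by 0.34, gave 4 and 26 with a median of −0.83, against 3.01% and 18.9% of all genes and a median of −0.31. Lower genes numbered 12 with a minimum of 10 CPM (median −0.13, 5 higher), against 11.7% of all genes lower and 3.39% higher. Lower genes numbered 14 with at least 1 CPM in both libraries (median −0.20, 6 higher), against 10.6% of all genes lower and 3.42% higher. This last condition was added after the data were seen. With a 4-fold rule 2 were higher and 14 lower, against 1.75% and 7.57% of all genes. Some of these 14, Slc1a1 and Slc43a1 among them, passed the minimum only through Bcat_Only. Without a filter 27 were lower, against 12.2% of all genes, and the median over 90 rows was −0.34. Leaving out the 8 rows that overlap a gene with at least 10 reads in both libraries was also added later. It gave 5 higher and 20 lower of 56 rows, against 4.42% and 14.6% of all genes. Genes with few reads, such as Slc1a1, Slc43a1 and Slc16a14, have wide intervals at this depth.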
